A study of Mus musculus with 20 samples.

Results

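Zygotes from Btg4 knockout mice were compared with zygotes from wild-type mice, with 2 libraries in each group. The labels give the knockout genotype as Btg4-/- and the strain of both groups as ICR, and the mothers were 21 to 23 days old, were given PMSG and hCG to induce ovulation and were then mated. Each library was made from the mRNA of 60 pooled oocytes or embryos, so a library is an average over a pool and not over animals. The labels do not state the allele, the genotype of the males, the time after hCG or whether the replicates came from separate females, so the p-values below rest on the spread between libraries of the same group, which may be technical. That spread was pooled over 8 groups of 4 stages, of which the zygotes are 1. The zygotes belong to a series of 20 libraries that also holds knockout and wild-type germinal-vesicle (GV) oocytes, metaphase II (MII) oocytes and 2-cell embryos, 2 libraries each; a further 4 libraries, of an Erk-/- line and its controls, were not used. Expression is given as FPKM, fragments per kilobase of transcript, scaled to the mapped fragments of a library, as the authors deposited it. All genes with a mean of 1 FPKM or more in either zygote group were taken, which left 10341 of 23309 gene symbols. Of these, 926 entered through the knockout mean alone and 936 through the wild-type mean alone. At the edge of that filter, Cul4a stood just inside, with means of 0.999 FPKM in the knockout and 1.003 in the wild type, and Ano6 just outside, with 0.998 and 0.880.

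BTG4 belongs to the BTG/TOB family of adaptors, which bind the CAF1-type deadenylases CNOT7 and CNOT8 and so bring the CCR4-NOT complex to mRNAs whose poly(A) tails it shortens. A fully grown mouse oocyte is transcriptionally silent, and it matures, is fertilized and reaches the first division on mRNA stored during growth. Much of that store is deadenylated and destroyed between the resumption of meiosis and the 2-cell stage, while other stored mRNAs are polyadenylated in the cytoplasm and recruited to ribosomes. A library made from purified mRNA reads the amount of an mRNA together with how well its tail is captured. FPKM is relative to the mapped fragments of its library. In these bulk samples fewer molecules per embryo, a shorter tail and a larger total of the other mRNAs cannot be told apart.

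The sequenced depth, estimated from the deposited confidence intervals, was 5310000 and 4260000 fragments in the knockout zygotes and 4110000 and 3950000 in the wild type. Summed over all gene symbols, FPKM came to 424727 and 408430 in the knockout zygotes and 354205 and 343949 in the wild type. The totals thus differ between the groups, and sums over a list are best read beside their share of all FPKM. Log2(FPKM + 1) correlated across genes at r = 0.977 between the knockout libraries and 0.971 between the wild-type libraries. Maternal mRNAs that mark the egg were abundant in the zygote libraries of both groups. Dppa3, a maternal protein that protects the maternal pronucleus from demethylation, stood at 1578 and 1493 FPKM in the knockout against 1508 and 1315 FPKM in the wild type. Zar1, a stored RNA-binding protein needed for the first division, stood at 1937 and 1652 FPKM in the knockout against 1599 and 1345 FPKM in the wild type. Neither gene passed the test. Of 25 genes listed as switched on at the 2-cell stage, 19 were below 1 FPKM in all 4 zygote libraries, and Zfp352 and Tdpoz3 were listed at 0 in each. The list as a whole was not silent, since Arg2 and Sp110 were well expressed in both groups. It summed to 220 and 249 FPKM in the knockout and 313 and 320 FPKM in the wild type.

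The Btg4 mRNA itself, at chr9:50924106-50927805 in the mm9 coordinates of the files, was present at 139 and 164 FPKM in the knockout zygotes and at 610 and 559 FPKM in the wild type. Both knockout libraries were lower, and the difference was -1.94 ± 0.12 on the log2(FPKM + 1) scale (± SE, adjusted p = 5.71e-08). Since the allele is not given, the FPKM of the whole locus does not show which part of the gene is still transcribed. In the knockout against wild-type comparison of all genes, 5834 of 10341, or 56.4%, passed an adjusted p of 0.05. Of all genes tested, 28.9% (2986) were higher in the knockout and 27.5% (2848) were lower, and these shares are the background for every count below. Of the higher genes, 470 had entered through the knockout mean alone, and of the lower genes, 568 through the wild-type mean alone. For these genes the filter itself favours the direction called. A change of 2-fold or more was found for 2202 of the higher and 2119 of the lower genes, and one of 16-fold or more for 51 and 13. The libraries of the groups did not overlap for 4411 of the 10341 genes that were higher and 4067 that were lower. With 2 libraries in each group such separation also arises often without a difference, and these counts include genes that did not pass. The median log2 difference was 0.06; rescaling the libraries by the median of ratios moved it to -0.11, a shift of 0.17, and then 2452 genes were higher and 3215 lower. Some small differences that did not pass changed sign with the scaling. Lists of genes by function are described below over their members with 1 FPKM or more, and the number listed is given where it is larger; beside a list's median stands the median of all genes, 0.06.

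**Figure D1:**
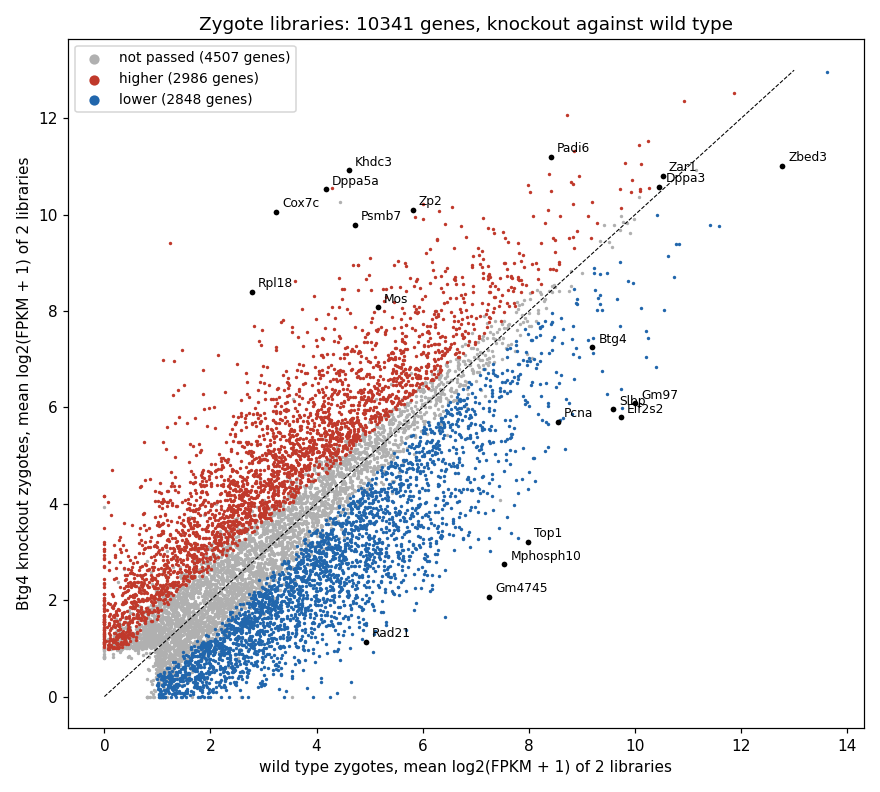
Mean log2(FPKM + 1) of the 2 knockout libraries (vertical) against that of the 2 wild-type libraries (horizontal) for 10341 genes; red points passed as higher (2986), blue as lower (2848), grey did not pass (4507), and the dashed line marks equal values. Named black points include Cox7c and Khdc3 far above the line, Top1 and Gm4745 far below it, and Dppa3 and Zar1 near it.

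The 12 genes with the highest differences were picked among those that passed, with a mean of 10 FPKM or more in the knockout and groups that do not overlap. A level of 10 FPKM or more and the separation of the groups thus follow from the choice. In the wild-type libraries these genes stood at under 30 FPKM. Cox7c, a subunit of cytochrome c oxidase, stood at 1081 and 1048 FPKM in the knockout against 7.82 and 9 FPKM in the wild type (6.82 ± 0.33, adjusted p = 1.12e-08). Dppa5a, a KH-domain RNA-binding protein of germ cells and early embryos, stood at 1455 and 1491 FPKM in the knockout against 14.8 and 19.6 FPKM in the wild type (6.35 ± 0.18, adjusted p = 2.21e-10). Khdc3, also called Filia and part of the subcortical maternal complex, stood at 2047 and 1828 FPKM in the knockout against 27.8 and 19.7 FPKM in the wild type (6.31 ± 0.18, adjusted p = 2.21e-10). In each of these genes the knockout libraries lay close together and far above both wild-type libraries. E330017A01Rik followed the same pattern with 1576 and 1427 against 16.8 and 20.5 FPKM (6.26 ± 0.19). Of the ribosomal proteins, Rpl18 stood at 347 and 329 against 5.19 and 6.66 FPKM (5.62 ± 0.16). Rps3 stood at 130 and 118 against 2.23 and 0.927 FPKM (5.64 ± 0.23) and Rpsa at 155 and 135 against 2.48 and 1.17 FPKM (5.73 ± 0.26). Psmb7, a catalytic subunit of the 20S proteasome, stood at 914 and 860 against 25.3 and 25.6 FPKM (5.07 ± 0.21). Psmb1, another subunit of that core, stood at 414 and 370 against 11.3 and 10.8 FPKM (5.02 ± 0.19). Pdcd2 stood at 125 and 128 against 1.02 and 1.28 FPKM (5.89 ± 0.20), and Tmem126a, a protein of the inner mitochondrial membrane, at 80.9 and 81.2 against 2.35 and 1.05 FPKM (4.97 ± 0.54). The wild-type libraries of Rpl34-ps1, an Rpl34 pseudogene, differed from each other, 0.0011 and 4.55 FPKM against 707 and 653 FPKM in the knockout (8.17 ± 0.55); its reads can be shared with Rpl34 and other copies, so this value is uncertain.

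The genes with the lowest differences were picked by the same rule, with a mean of 10 FPKM or more in the wild type. Top1, DNA topoisomerase I, stood at 8.75 and 7.75 FPKM in the knockout against 249 and 255 FPKM in the wild type (-4.78 ± 0.17, adjusted p = 1.03e-09). Mphosph10, a component of the U3 particle that processes ribosomal RNA, stood at 4.52 and 7.17 FPKM in the knockout against 169 and 202 FPKM in the wild type (-4.79 ± 0.26, adjusted p = 3.1e-08). Gm4745 stood at 3.21 and 3.19 FPKM in the knockout against 156 and 147 FPKM in the wild type (-5.18 ± 0.36, adjusted p = 1.86e-07). The knockout libraries of these genes held under 10 FPKM and the wild-type libraries over 100. Mphosph8, a reader of methylated histone H3 in the HUSH silencing complex, stood at 9.44 and 9.49 against 194 and 212 FPKM. Dnttip2, a nucleolar protein, stood at 5.78 and 8.6 against 124 and 188 FPKM and Snrnp48, a subunit of the minor spliceosome, at 0.357 and 0.112 against 24.5 and 23.6 FPKM. Zc3h15 stood at 5.55 and 13.5 against 185 and 264 FPKM, Rpusd4, a mitochondrial pseudouridine synthase, at 2.04 and 1.22 against 55.2 and 45.6 FPKM, and Pcp4l1 at 0.103 and 0 against 19 and 20.8 FPKM. Smim11 differed between the knockout libraries, 0.489 and 5.58 FPKM, but both were far below the wild-type values of 86.6 and 82.4. The histone H2A gene Hist2h2ac was listed at 0 in both knockout libraries and at 14 and 23.3 FPKM in the wild type, so no fold is given.

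**Figure D2:**
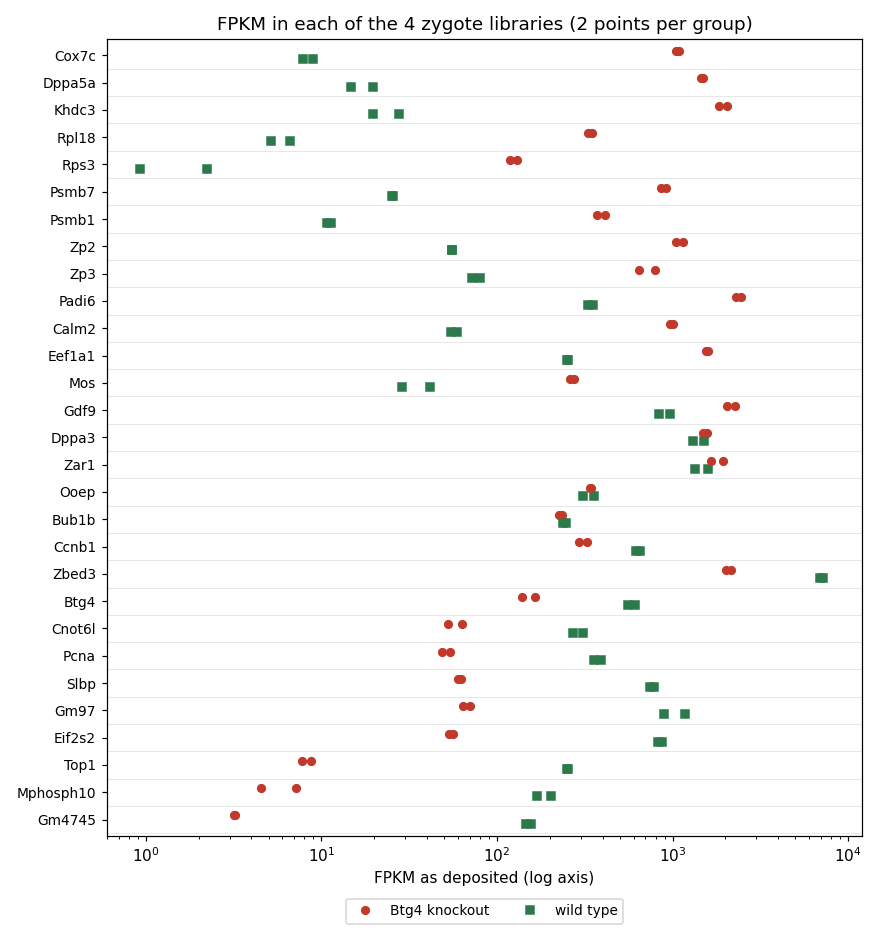
FPKM as deposited (log axis) of 29 genes named in the text in each of the 4 zygote libraries: red circles are the 2 knockout libraries and green squares the 2 wild-type libraries. The groups are far apart for Cox7c to Mos at the top and for Btg4 to Gm4745 at the bottom, and Dppa3, Zar1, Ooep and Bub1b, between them, have overlapping or nearly touching groups.

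The 3'UTR ends of the extreme genes were searched for the cytoplasmic polyadenylation element (CPE), the site bound by CPEB1, because CPE-bearing mRNAs are the ones known to be recruited in maturation. The search took TTTTAT or TTTTAAT, on the transcript strand alone, in the last 200 bases of the GENCODE vM21 transcript with the longest coding sequence. Of the 12 lowest genes, 5 of 12 with a 3'UTR held one (Gm4745, Mphosph10, Top1 and Dnttip2 among them), and of the 12 highest, 1 of 11 (Psmb1). Over all members with a 3'UTR of 200 bases or more the share was 30.2%. The median 3'UTR length was 550 bases in the 12 lowest genes and 163 in the 12 highest, so less sequence was searched in the latter. These counts are small, come from genes picked by their differences, and were not tested. The sites nearest the transcript end are given for these 4 genes, for Btg4 itself, for Obox2, an egg homeobox gene that was also lower, and for Psmb1, which was higher. Each is 30 bases of GRCm38 sequence, 5′ to 3′ on the transcript strand, with the CPE in capitals.
Gm4745: gctattaattttTTTTATtgttagagaata
Mphosph10: gtttcctgttgTTTTAATaaagaccatcac
Top1: catgaattcccTTTTAATcaactgtaggtt
Dnttip2: caaactatagcaTTTTATacatcttgattt
Btg4: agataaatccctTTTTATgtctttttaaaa
Obox2: taggtcttaattTTTTATtgttagagtata
Psmb1: tttttgcttttTTTTAATaaacttctgttc
They lie in the 3'UTR of the named gene, for Gm4745 at chr7:14665931-14665960 on the plus strand, for Mphosph10 at chr7:64376542-64376571 on the minus strand, for Top1 at chr2:160722703-160722732 on the plus strand, for Dnttip2 at chr3:122285161-122285190 on the plus strand, for Btg4 at chr9:51119797-51119826 on the plus strand, for Obox2 at chr7:15398478-15398507 on the plus strand and for Psmb1 at chr17:15475028-15475057 on the minus strand. The motif in Psmb1 runs into an AATAAA polyadenylation signal, as does that in Mphosph10. The 30 bases shown for Obox2 are the same in Obox1, a near-identical copy, so reads may be shared between the pair and the split between them is uncertain. Obox1 stood at 60.4 and 54 against 438 and 465 FPKM and Obox2 at 87 and 77.1 against 890 and 821 FPKM. The genes shown are a choice, and other named genes that were higher, such as Calm2, Eef1a1 and Eif3m, also held a CPE there. A match is a description of the sequence and not evidence of a working site.

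The adaptors and subunits of the deadenylation machinery differed in both directions. Tob1, another BTG/TOB adaptor, was higher in the knockout, at 10.3 and 12.2 FPKM in the knockout against 0.627 and 1.86 FPKM in the wild type (2.50 ± 0.25, adjusted p = 3.76e-06). Among the BTG and TOB adaptors 1 of 5 members (6 listed) passed as higher and 2 as lower, with Btg4 counted among the lower (median -0.14, and 0.19 after correction for transcript length). Of the CCR4-NOT subunits, 2 of 11 members passed as higher and 5 as lower, with a median log2 difference of -0.46. The lower ones included the catalytic subunits Cnot6l, at 52.5 and 63 against 271 and 308 FPKM (-2.31 ± 0.16, adjusted p = 1.9e-07), and Cnot7, at 40.7 and 38.6 against 107 and 114 FPKM (-1.46 ± 0.12, adjusted p = 8.88e-07). The scaffold Cnot1 stood at 13.2 and 14.2 against 9.37 and 10.6 FPKM and did not pass (adjusted p = 0.216), and Cnot10 was higher, at 8.98 and 5.97 against 2.75 and 3.69 FPKM (0.99 ± 0.31). Of the other decay factors, 8 of 37 members (41 listed) passed as higher and 14 as lower (median 0.20, and -0.01 after median-of-ratios scaling). Lsm4, of the Lsm ring that binds shortened tails and U6 RNA, was higher at 148 and 122 against 1.53 and 6.64 FPKM. Pan3, an adaptor of the PAN2 deadenylase, was lower at 6.53 and 6.57 against 52.1 and 54.1 FPKM. The decapping cofactor Dcp1a (27.8 and 27.5 against 48 and 55.2 FPKM) was also lower, as was the terminal uridylyltransferase Zcchc6, also called Tut7 (1.08 and 0.527 against 3.65 and 7.15 FPKM). The reader of methylated adenosine Ythdf2 (18.4 and 20.9 against 13.4 and 14.2 FPKM) and the AU-rich element binder Zfp36l2 (4.91 and 3.92 against 3.52 and 2.21 FPKM) did not pass. The call of Cnot10 (0.73 without knockout library 1, 0.83 without wild-type library 1) was lost with 1 library left out.

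Of the proteins that bind the tail and store mRNA, 9 of 32 members (33 listed) passed as higher and 17 as lower, with a median of -0.46. Without wild-type library 2 the counts were 8 higher and 11 lower. Pabpn1, the nuclear poly(A)-binding protein, was lower at 28.2 and 31.6 FPKM in the knockout against 278 and 261 FPKM in the wild type (-3.13 ± 0.19, adjusted p = 6.32e-08). Cpeb1, which binds the CPE, was slightly lower at 79.5 and 74.2 against 97.4 and 105 FPKM (-0.39 ± 0.12, adjusted p = 0.0191). Some oocyte proteins of the list went the other way. Zar1l, a relative of Zar1, stood at 661 and 594 against 77.9 and 61 FPKM (3.16 ± 0.27, adjusted p = 1.11e-06). Pabpc1l, the embryonic poly(A)-binding protein, stood at 199 and 160 against 98.5 and 90.4 FPKM (0.91 ± 0.15, adjusted p = 0.000204). Ybx2, or MSY2, which packages stored mRNA, stood at 430 and 407 against 228 and 212 FPKM (0.93 ± 0.17, adjusted p = 0.000493). Igf2bp2, another storage protein, stood at 51.1 and 67.2 against 54.6 and 78.5 FPKM and did not pass. The small difference of Cpeb1 (-0.34 without knockout library 2, -0.34 without wild-type library 2) did not pass with 1 library left out.

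The mRNAs of ribosomal proteins were higher in knockout zygotes as a group. In the large subunit 37 of 48 members (49 listed) passed as higher and 0 as lower, with a median log2 difference of 1.89. In the small subunit 28 of 32 members passed as higher and 1 as lower, with a median of 1.99. Over all genes 28.9% were higher and the median was 0.06. Summed over the large-subunit genes, the libraries held 9725 and 9408 FPKM in the knockout libraries and 1882 and 1648 FPKM in the wild-type libraries, which is 2.29% and 2.3% of all FPKM in the knockout and 0.531% and 0.479% in the wild type. The small-subunit genes summed to 7203 and 7284 FPKM in the knockout libraries and 3626 and 3055 FPKM in the wild-type libraries. Their share of all FPKM was 1.7% and 1.78% in the knockout and 1.02% and 0.888% in the wild type. Rpl7 stood at 42.9 and 56.5 against 3.35 and 5.9 FPKM (3.20 ± 0.22) and Rps14 at 374 and 281 against 126 and 85.9 FPKM (1.63 ± 0.19). Rps27a, a fusion of ubiquitin with a ribosomal protein, stood at 103 and 106 against 6.89 and 4.16 FPKM (4.05 ± 0.31). Rplp0, of the ribosomal stalk, differed least among those named, at 217 and 179 against 151 and 103 FPKM (0.66 ± 0.17). Ribosomal protein genes have many processed pseudogenes, so part of their reads may be assigned elsewhere. With 1 library left out, the call was lost for Rplp0 (0.52 without knockout library 1, 0.39 without wild-type library 2).

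Factors that work on the ribosome were split between the directions. Of the translation initiation and elongation factors, 23 of 56 members (63 listed) passed as higher and 15 as lower (median 0.42). Eef1a1, which delivers aminoacyl-tRNA, was higher at 1554 and 1592 FPKM in the knockout against 249 and 253 FPKM in the wild type (2.64 ± 0.09, adjusted p = 6.6e-10). Eif3m, a subunit of initiation factor eIF3, was higher at 143 and 147 against 7.68 and 9.32 FPKM (3.94 ± 0.33). The cap-binding protein Eif4e was modestly higher, at 95.6 and 84.8 against 60.9 and 56.2 FPKM (0.61 ± 0.11). Eif2s2, the beta subunit of eIF2, was lower at 56.1 and 53.4 FPKM in the knockout against 874 and 822 FPKM in the wild type (-3.93 ± 0.13, adjusted p = 6.55e-10). Eif5b, which joins the ribosomal subunits, was lower at 1.78 and 1.34 against 31.6 and 35.3 FPKM (-3.75 ± 0.21). So was the scaffold Eif4g1, at 7.05 and 7.29 against 13.7 and 19.4 FPKM (-1.08 ± 0.25). Of the aminoacyl-tRNA synthetases, 9 of 19 members (20 listed) passed as higher and 5 as lower. Without knockout library 1 or 2 the list gave 7 higher and 3 lower, and without wild-type library 2 it gave 7 higher and 2 lower. Qars was higher at 327 and 296 against 41.2 and 36 FPKM and Gars at 54.2 and 54.2 against 34.2 and 32.7 FPKM. Tars was lower at 1.16 and 2.4 against 22.8 and 23.9 FPKM and Eprs at 2.94 and 3.68 against 20.2 and 26.9 FPKM. In ribosome biogenesis 19 of 44 members (46 listed) passed as higher and 10 as lower. The small snoRNP protein Nop10 was higher, at 97.5 and 81.4 against 26.6 and 16.9 FPKM (2.02 ± 0.27), and so was the methyltransferase Fbl, at 19.9 and 17.6 against 12.8 and 10.4 FPKM (0.65 ± 0.23). The large snoRNP protein Nop58 was lower, at 9.73 and 13.4 against 91.1 and 96.6 FPKM (-2.93 ± 0.30), together with nucleolin, Ncl, at 4.95 and 8.72 against 23 and 42.5 FPKM (-2.09 ± 0.43). With 1 library left out the calls were lost for Fbl (0.57 without knockout library 1, 0.74 without knockout library 2, 0.52 without wild-type library 2) and Gars (0.68 without knockout library 1, 0.68 without knockout library 2, 0.65 without wild-type library 2).

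Nuclear genes for the mitochondrion were mostly higher in knockout zygotes. Of the complex I subunits, 29 of 37 members passed as higher and 1 as lower (median 2.28), and summed they reached 0.946% and 0.915% of all FPKM in the knockout and 0.274% and 0.227% in the wild type. In complex II 3 of 4 members passed as higher and 1 as lower. In complex III 8 of 9 members passed as higher and 0 as lower (median 1.85). In complex IV with cytochrome c 10 of 13 members (14 listed) passed as higher and 1 as lower (median 1.62). In ATP synthase 12 of 15 members passed as higher and 0 as lower (median 1.29). Mitochondrial ribosomal proteins had a median of 1.35, and 53 of 75 members (76 listed) passed as higher and 3 as lower, or 47 higher and 5 lower after correction for transcript length. In the import machinery 15 of 20 members (24 listed) passed as higher and 1 as lower (median 1.31). Ndufa1, a small complex I subunit, stood at 179 and 153 FPKM in the knockout against 9.93 and 4.15 FPKM in the wild type (4.47 ± 0.27, adjusted p = 6.04e-08). Sdhd, a membrane anchor of complex II, stood at 368 and 337 FPKM in the knockout against 22.4 and 21.4 FPKM in the wild type (3.95 ± 0.11, adjusted p = 1.73e-10). The iron-sulfur subunit Sdhb stood at 62.6 and 53.8 against 11.9 and 5.85 FPKM (2.65 ± 0.35). Uqcrfs1, the Rieske protein of complex III, stood at 75.4 and 71.2 against 8.11 and 9.66 FPKM, and its core subunit Uqcrc2 at 302 and 283 against 95.7 and 79.7 FPKM. Cytochrome c, Cycs, stood at 33.8 and 28.8 against 8.29 and 10.3 FPKM. The ATP synthase subunit Atp5j stood at 30.5 and 29.9 against 2.05 and 1.07 FPKM and the catalytic subunit Atp5a1 at 478 and 465 against 206 and 178 FPKM. The import receptor Tomm22 stood at 341 and 269 against 25 and 18.4 FPKM, Timm23 at 511 and 451 against 269 and 211 FPKM, and the mitochondrial ribosomal protein Mrpl12 at 126 and 113 against 14.6 and 9.2 FPKM.

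Some mitochondrial genes were lower in the knockout. Cox5a, a complex IV subunit, stood at 122 and 117 against 265 and 306 FPKM (-1.25 ± 0.15, adjusted p = 1.93e-05). Ndufa10, of complex I, stood at 87.5 and 94.2 against 176 and 197 FPKM (-1.03 ± 0.17). The complex II flavoprotein Sdha stood at 45.9 and 45.4 against 68.6 and 70.3 FPKM (-0.59 ± 0.15), and the mitochondrial ribosomal protein Mrpl9 at 42.8 and 52.7 against 148 and 128 FPKM (-1.52 ± 0.17). Citrate synthase, Cs, was also lower, at 26.5 and 32.1 against 148 and 144 FPKM (-2.28 ± 0.12, adjusted p = 2.31e-08). Members of a single complex could lie on opposite sides, as Sdha and Sdhd did in complex II. No mitochondrially encoded gene is among the loci of the files.

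The proteasome core was higher in all but 1 of its subunits. Of the 20S subunits, 13 of 14 members (19 listed) passed as higher and 1 as lower (median 1.78). The catalytic subunit Psmb5 stood at 57.5 and 45.5 against 5.65 and 6.77 FPKM (2.86 ± 0.23) and the ring subunit Psma1 at 165 and 160 against 63.7 and 55.3 FPKM (1.43 ± 0.12). The lower one was Psma7, the most abundant subunit named here, at 665 and 1128 FPKM in the knockout against 2904 and 3226 FPKM in the wild type (-1.82 ± 0.29, adjusted p = 0.000214). Summed over all 20S subunits, the level was 4658 and 4831 FPKM in the knockout libraries and 3712 and 3904 FPKM in the wild-type libraries. The groups lay closer as a share of all FPKM, at 1.1% and 1.18% in the knockout and 1.05% and 1.14% in the wild type. In the 19S cap 11 of 21 members passed as higher and 3 as lower (median 0.80), and after median-of-ratios scaling 11 higher and 5 lower. The deubiquitinase Psmd14 was higher, at 71.4 and 82.3 against 2.38 and 2.91 FPKM (4.42 ± 0.31). The scaffold Psmd1 was lower, at 96.1 and 110 against 211 and 242 FPKM (-1.13 ± 0.15), and so was the ATPase Psmc6, at 3.54 and 3.65 against 20.1 and 21.2 FPKM (-2.23 ± 0.26). Of the ubiquitin genes and E2 enzymes, 16 of 35 members (36 listed) passed as higher and 9 as lower, with the polyubiquitin gene Ubb higher at 2969 and 2647 against 1190 and 974 FPKM (1.38 ± 0.12). Among the chaperones 12 of 21 members (22 listed) passed as higher and 7 as lower. Hspa8, the constitutive Hsp70, was higher at 686 and 764 FPKM in the knockout against 71.3 and 80.3 FPKM in the wild type (3.24 ± 0.15, adjusted p = 8.04e-09). The chaperonin subunit Cct5 was higher at 426 and 436 against 31.5 and 29.8 FPKM. Hsp90aa1 was lower at 402 and 427 FPKM in the knockout against 1602 and 1792 FPKM in the wild type (-2.03 ± 0.11, adjusted p = 3.19e-08). Its endoplasmic reticulum relative Hsp90b1 was also lower, at 4.53 and 12.5 against 86.3 and 159 FPKM (-3.77 ± 0.49).

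**Figure D3:**
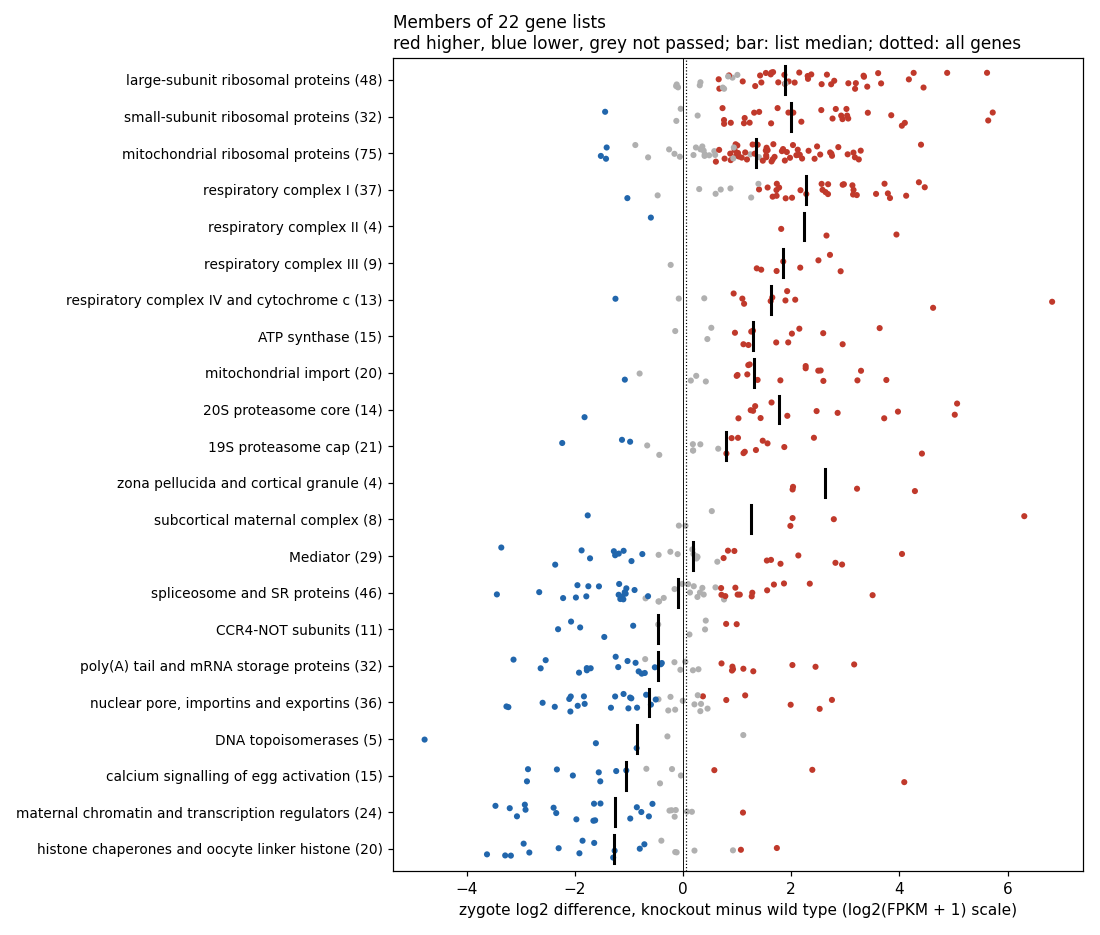
Zygote log2 difference, knockout minus wild type, of every member of 22 gene lists (number of members in parentheses); red points passed as higher, blue as lower, grey did not pass, the black bar is the list's median and the dotted line the median of all genes, 0.06. Ribosomal, respiratory, proteasome core and zona lists have medians from 1.29 to 2.63, and the bottom rows, chromatin regulators and histone chaperones, have medians of -1.25 and -1.28.

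Genes of the egg coat, which are transcribed in the growing oocyte, were higher in the knockout. Of the zona and cortical granule genes, 4 of 4 members passed as higher and 0 as lower, with a median of 2.63. Zp2, a zona glycoprotein that supports sperm binding, stood at 1142 and 1051 FPKM in the knockout against 55.1 and 55.1 FPKM in the wild type (4.29 ± 0.13, adjusted p = 4.12e-10). Zp3 stood at 792 and 644 FPKM in the knockout against 80.1 and 71.9 FPKM in the wild type (3.22 ± 0.14, adjusted p = 5.99e-09) and Zp1 at 426 and 373 against 100 and 94.4 FPKM (2.03 ± 0.17). Astl, or ovastacin, the cortical granule protease that cleaves ZP2 after fertilization, stood at 522 and 471 FPKM in the knockout against 139 and 104 FPKM in the wild type (2.03 ± 0.18, adjusted p = 1.7e-06). Summed, the 4 genes made up 0.679% and 0.622% of all FPKM in the knockout and 0.106% and 0.0946% in the wild type. Of the egg surface genes, 1 of 3 members (4 listed) passed as higher and 0 as lower. Cd9, a tetraspanin needed for gamete fusion, was higher at 240 and 222 against 28.1 and 13.2 FPKM (3.51 ± 0.29). Folr4, now called Izumo1r or Juno, the receptor for sperm IZUMO1, did not pass, at 138 and 132 against 152 and 134 FPKM (adjusted p = 0.733).

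Growth factors and other oocyte genes fell on both sides: 7 of 11 members (13 listed) passed as higher and 3 as lower. Gdf9 stood at 2280 and 2054 FPKM in the knockout against 963 and 836 FPKM in the wild type (1.27 ± 0.12, adjusted p = 2.24e-06). Its partner Bmp15 stood at 969 and 1042 against 911 and 803 FPKM and did not pass (adjusted p = 0.168). The oocyte transcription factors Figla and Nobox were higher: Figla stood at 64.2 and 44.8 against 1.36 and 3.55 FPKM (4.06 ± 0.37) and Nobox at 141 and 132 against 61.5 and 61 FPKM (1.14 ± 0.16). Oosp1, an oocyte-secreted protein, was lower at 284 and 238 FPKM in the knockout against 1694 and 1310 FPKM in the wild type (-2.51 ± 0.13, adjusted p = 1.67e-08). Gm97, its neighbour on chromosome 19, was lower still, at 70.3 and 63.9 FPKM in the knockout against 1172 and 894 FPKM in the wild type (-3.91 ± 0.14, adjusted p = 1.04e-09).

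The subcortical maternal complex, which lies under the egg membrane and is needed for the first divisions, was counted next: 4 of 8 members passed as higher and 1 as lower, with a median of 1.26, and 4 higher and 3 lower after quantile normalization. Padi6 stood at 2442 and 2285 FPKM in the knockout against 350 and 332 FPKM in the wild type (2.79 ± 0.13, adjusted p = 1.05e-08). Tle6 stood at 503 and 457 against 121 and 120 FPKM (1.99 ± 0.17), and Nlrp2 was also higher, at 58.5 and 58.5 against 13 and 14.2 FPKM (2.03 ± 0.21). Nlrp5, or MATER, stood at 133 and 176 against 89 and 125 FPKM and did not pass. Zbed3 was lower, at 2137 and 2014 FPKM in the knockout against 7150 and 6921 FPKM in the wild type (-1.76 ± 0.17, adjusted p = 2.37e-06). It was the most abundant of the members named here. Summed over the list, the level was 8589 and 8147 FPKM in the knockout libraries and 9091 and 8872 FPKM in the wild-type libraries. That was 2.02% and 1.99% of all FPKM in the knockout and 2.57% and 2.58% in the wild type. Ooep stood at 342 and 339 against 355 and 307 FPKM and did not pass; the locus, chr9:78224710-78226395, is near Dppa5a at chr9:78214861-78216006 (mm9), which was among the highest. In the KH-domain family, to which Dppa5a, Khdc3 and Ooep belong, 2 of 6 members passed as higher and 1 as lower (median 0.07). After median-of-ratios scaling the median was -0.14, and after quantile normalization it was -0.43, with 2 higher and 4 lower. Khdc1b, of the same family, was lower, at 874 and 901 against 2904 and 2584 FPKM (-1.63 ± 0.10, adjusted p = 7.85e-08). Of the oocyte NLRP genes, 2 of 10 members passed as higher and 1 as lower, with Nlrp14 higher at 595 and 774 against 192 and 254 FPKM and Nlrp4a lower at 171 and 171 against 434 and 468 FPKM. That list gave 2 higher and 4 lower after median-of-ratios scaling and 2 higher and 6 lower after quantile normalization.

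Of the genes for metaphase arrest, 4 of 9 members (10 listed) passed as higher and 2 as lower. In the anaphase-promoting complex with securin 6 of 16 members passed as higher and 2 as lower. Among Cdk1, the B cyclins and their regulators 2 of 15 members passed as higher and 6 as lower, and 2 higher and 3 lower without wild-type library 2. The median of the metaphase arrest list was 0.21, and -0.07 after quantile normalization. Mos, the kinase that starts the ERK cascade of metaphase arrest, was higher in knockout zygotes, at 276 and 261 FPKM in the knockout against 41.4 and 28.9 FPKM in the wild type (2.92 ± 0.22, adjusted p = 3.69e-07). Map2k1, the MAP kinase kinase below Mos, was lower, at 20.6 and 20.7 FPKM in the knockout against 158 and 144 FPKM in the wild type (-2.81 ± 0.13, adjusted p = 1.01e-08). Fbxo43, or EMI2, which inhibits the anaphase-promoting complex until fertilization, was lower at 2.24 and 4.6 against 6.75 and 6.76 FPKM (-0.86 ± 0.33, adjusted p = 0.0495). Cyclin B1, Ccnb1, was lower at 325 and 293 FPKM in the knockout against 651 and 620 FPKM in the wild type (-1.04 ± 0.11, adjusted p = 6.07e-06), and Ccnb2 at 15.8 and 12.7 against 62 and 56.8 FPKM (-1.99 ± 0.27). Cdk1 was lower at 5.74 and 3.99 against 9.19 and 8.38 FPKM (-0.75 ± 0.24, adjusted p = 0.0188). Wee2, the egg kinase that inhibits CDK1 at fertilization, was higher at 79.9 and 96 against 40.5 and 48.1 FPKM (0.97 ± 0.19, adjusted p = 0.00104). The phosphatases Cdc25b and Cdc25c lay on opposite sides: Cdc25b, which acts early in meiotic resumption, stood at 7.9 and 7.7 against 30 and 23 FPKM (lower) and Cdc25c at 8.22 and 12.8 against 0.43 and 0.782 FPKM (higher). Securin, Pttg1, was higher at 3214 and 2749 FPKM in the knockout against 1307 and 1128 FPKM in the wild type (1.29 ± 0.21, adjusted p = 0.000217). Cdc20, the activator of the anaphase-promoting complex, was higher at 30.1 and 19.2 against 13.9 and 10.1 FPKM (0.96 ± 0.23, adjusted p = 0.00347). With 1 library left out the calls were lost for Fbxo43 (-0.47 without knockout library 1, -0.86 without wild-type library 1, -0.86 without wild-type library 2), Cdk1 (-0.54 without knockout library 2, -0.69 without wild-type library 1, -0.81 without wild-type library 2) and Cdc20 (0.65 without knockout library 1).

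Of the genes for the calcium signal of egg activation, 3 of 15 members (18 listed) passed as higher and 8 as lower (median -1.05, and -0.25 after correction for transcript length). Itpr1, the receptor that releases calcium, was lower at 1.8 and 2.13 against 5.55 and 4.73 FPKM (-1.05 ± 0.26). Camk2g, the kinase that passes the calcium signal on, was lower at 35.5 and 34.8 against 101 and 110 FPKM (-1.56 ± 0.15, adjusted p = 2.41e-06). So was the calcineurin subunit Ppp3ca, at 0.781 and 1.69 against 17 and 13.5 FPKM (-2.88 ± 0.32). Calmodulin 2, Calm2, was higher at 1002 and 972 FPKM in the knockout against 55 and 59 FPKM in the wild type (4.09 ± 0.14, adjusted p = 6.44e-10).

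Of the histone chaperones and linker histone, 2 of 20 members passed as higher and 13 as lower (median -1.28); the background of lower genes was 27.5%. Slbp, which binds the stem-loop of histone mRNAs, stood at 59.7 and 62.8 FPKM in the knockout against 746 and 787 FPKM in the wild type (-3.62 ± 0.12, adjusted p = 6.44e-10). Hira, the chaperone of histone H3.3, stood at 2.8 and 3.46 against 6.49 and 5.09 FPKM (-0.71 ± 0.26). The H3.3 genes went in opposite directions. H3f3a was higher at 1102 and 1097 FPKM in the knockout against 335 and 324 FPKM in the wild type (1.74 ± 0.09, adjusted p = 2.09e-08), and H3f3b was lower at 169 and 153 against 439 and 355 FPKM (-1.29 ± 0.12, adjusted p = 2.29e-06). Npm2, the nucleoplasmin that decondenses sperm chromatin, was higher at 1228 and 1233 against 509 and 673 FPKM (1.07 ± 0.16, adjusted p = 0.000113). H1foo, the oocyte linker histone, stood at 133 and 117 against 115 and 100 FPKM and did not pass. Of the genes for DNA methylation, 1 of 9 members (13 listed) passed as higher and 3 as lower, and 1 higher and 5 lower after quantile normalization. Tet3, which oxidizes 5-methylcytosine in the paternal pronucleus, was lower at 32.1 and 27.4 FPKM in the knockout against 70.1 and 85.9 FPKM in the wild type (-1.36 ± 0.17, adjusted p = 2.88e-05). Dnmt1, which copies methylation at replication, was lower at 41.7 and 54.5 against 74.2 and 94.8 FPKM (-0.80 ± 0.24). Dnmt3l was higher at 77.1 and 70.5 against 43.1 and 36.1 FPKM (0.89 ± 0.17). Uhrf1, a partner of DNMT1, stood at 344 and 332 against 347 and 343 FPKM and Zfp57, which guards imprints, at 1322 and 1316 against 1052 and 1120 FPKM; neither passed. With 1 library left out the calls were lost for Hira (-0.60 without knockout library 1, -0.83 without knockout library 2, -0.56 without wild-type library 1, -0.86 without wild-type library 2) and Dnmt1 (-0.61 without knockout library 1, -0.63 without wild-type library 2).

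In DNA replication 13 of 38 members passed as higher and 10 as lower (median 0.10). The balance turned to 8 higher and 12 lower after median-of-ratios scaling and to 7 higher and 10 lower without wild-type library 1. Pcna, the sliding clamp, was lower at 53.7 and 48.9 FPKM in the knockout against 390 and 357 FPKM in the wild type (-2.84 ± 0.11, adjusted p = 1.55e-09). The clamp loader subunit Rfc1 was lower at 1.28 and 2.46 against 23.7 and 37 FPKM. So were Mcm2, of the replicative helicase, at 10.3 and 9.25 against 21.2 and 22.4 FPKM and Orc6, of the origin recognition complex, at 14.7 and 14.3 against 26.6 and 24.5 FPKM. Rfc2 was higher at 59.8 and 55.8 against 4.7 and 8.43 FPKM and Mcm6 slightly higher at 59.6 and 48.9 against 34.3 and 38.2 FPKM. Of the topoisomerases, 0 of 5 members passed as higher and 3 as lower, among them Top1, described above, and Top2a at 2.08 and 4.29 against 7.42 and 17 FPKM (-1.61 ± 0.48). After correction for transcript length 0 passed as higher and 1 as lower, as without wild-type library 2. With 1 library left out the calls were lost for Top2a (-1.22 without knockout library 1, -1.06 without wild-type library 2) and Mcm6 (0.42 without knockout library 1, 0.49 without wild-type library 1, 0.64 without wild-type library 2).

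Maternal regulators of chromatin and transcription, which include candidates for starting the embryonic genome, were mostly lower: 1 of 24 members (26 listed) passed as higher and 17 as lower, with a median of -1.25. Suz12, of the Polycomb repressive complex 2, stood at 7.33 and 10.5 FPKM in the knockout against 94.8 and 121 FPKM in the wild type (-3.47 ± 0.28, adjusted p = 6.4e-07). Smarca4, or BRG1, stood at 3.18 and 3.51 against 10.6 and 14.4 FPKM (-1.62 ± 0.28, adjusted p = 0.000362) and Hdac2 at 19.9 and 19.9 against 34.8 and 28.2 FPKM (-0.63 ± 0.15, adjusted p = 0.00322). Pou5f1, or OCT4 (481 and 406 against 539 and 487 FPKM), Yap1 (49 and 43.8 against 52.2 and 51.1 FPKM) and Trim24 (15 and 18 against 13.8 and 27.9 FPKM) did not pass. Dppa2 was the one higher member, at 51.3 and 50 against 23.1 and 22.8 FPKM (1.11 ± 0.20, adjusted p = 0.000461). Of the Obox genes with a mean of 1 FPKM or more, 0 of 3 members (5 listed) passed as higher and 2 as lower. In the general transcription machinery 14 of 32 members (33 listed) passed as higher and 7 as lower (median 0.25). After correction for transcript length it was 9 higher and 8 lower (median -0.02), and without knockout library 1 it was 13 higher and 4 lower. Polr2k, a small polymerase subunit, was higher at 177 and 171 against 16.7 and 15.5 FPKM (3.36 ± 0.20), as was Gtf2b at 768 and 726 against 482 and 425 FPKM (0.72 ± 0.11). The large subunit Polr2a was lower at 2.32 and 3.05 against 6.85 and 6.21 FPKM (-1.04 ± 0.30). Of the Mediator subunits, 10 of 29 members (30 listed) passed as higher and 10 as lower: Med7 was higher at 81.4 and 76.8 against 3.2 and 4.57 FPKM and Med30 lower at 22 and 21.8 against 246 and 223 FPKM. Of the 2-cell genes, 1 of 4 members (25 listed) passed as higher and 1 as lower. Zscan4d, which is switched on in 2-cell embryos, stood at 1.2 and 0.86 against 0.661 and 0.705 FPKM and did not pass. The call of Polr2a (-0.89 without knockout library 1, -0.98 without wild-type library 1) was lost with 1 library left out.

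The zygote difference was then set against what the same mRNAs do in normal maturation, which was read from wild-type GV and MII oocytes. The log2 differences of these comparisons share no library. Their tests share 1 estimate of each gene's spread over the 16 libraries, so a gene with little spread passes both more easily. The shares that passed are therefore not independent of the classes. The classes also hold the genes that entered through a single zygote mean, 926 by the knockout and 936 by the wild type. For those genes the filter favours that group's direction, and values without them are not given here. Of 10341 genes, 2557 (24.7%) fell by 2-fold or more from wild-type GV to MII and passed the test, and 2246 (21.7%) rose. Genes that fell had a median of 24.0 and 23.9 FPKM in the wild-type GV libraries, 4.25 and 4.13 at MII, 6.12 and 5.80 in wild-type zygotes and 13.5 and 13.3 in knockout zygotes. Of these genes 59.0% were higher in knockout zygotes and 8.56% lower, with a median log2 difference of 1.05. Genes that rose had medians of 3.25 and 3.33 FPKM at GV, 14.9 and 16.6 at MII, 18.8 and 20.6 in wild-type zygotes and 7.77 and 8.54 in knockout zygotes. Of these 8.55% were higher and 60.4% lower, with a median of -1.0. Among the 5538 genes that did neither, 23.2% were higher and 23.0% lower, with a median of 0.03. Across genes, which are not independent replicates and share library composition, the wild-type change from GV to MII and the zygote difference had r = -0.56. In both classes the knockout zygote medians lay between those of wild-type GV oocytes and those of wild-type zygotes. FPKM is scaled to the mapped fragments of a library, so a class that keeps more mRNA lowers the values of the others. This was not tested apart.

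**Figure D4:**
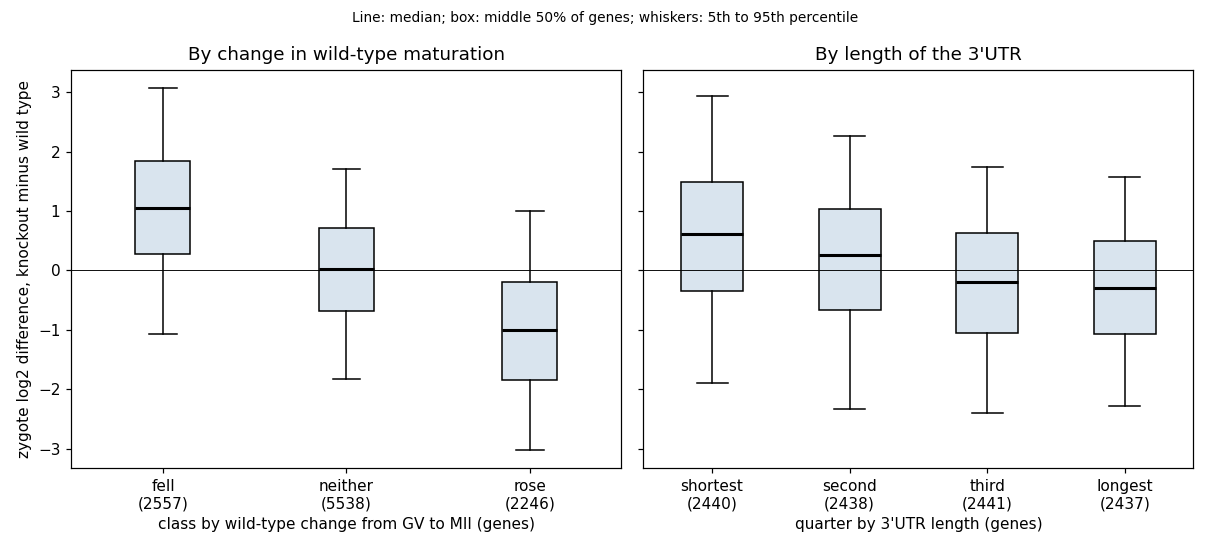
Zygote log2 difference, knockout minus wild type, of genes grouped by their change from GV to MII in wild-type oocytes (left) and by the length of their 3'UTR (right); the line is the median, the box the middle 50% of genes and the whiskers the 5th to 95th percentiles. The medians are 1.05, 0.03 and -1.0 from left to right in the first panel and 0.61, 0.26, -0.20 and -0.30 in the second.

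Transcript structure differed between the genes that were higher and those that were lower. The median 3'UTR was 551 bases in the higher genes, 894 in those that did not pass and 1274 in the lower genes, over 9756 genes with an annotated 3'UTR. The genes were put in 4 bins of equal size by 3'UTR length. In the bin with the shortest 3'UTRs, up to 343 bases, 42.0% of genes were higher and 16.4% lower, and in that with the longest, over 1868 bases, 19.9% were higher and 36.8% lower. Without the ribosomal, respiratory, import and proteasome lists the bin of shortest 3'UTRs had a median of 0.52 and that of the longest -0.32. After the log2 values were corrected for a trend on transcript length within each library, the medians from shortest to longest were 0.30, 0.13, -0.06 and 0.18. The 3'UTR is part of the transcript, so this correction also takes out any true difference that goes with length. Such a difference and the way length enters FPKM cannot be told apart here. A CPE in the last 200 bases was found in 22.2% of higher genes, 28.7% of those that did not pass and 39.6% of lower genes, against 30.2% of all members with a 3'UTR of that length. The same letters in reverse order, TATTTT or TAATTTT, gave 25.2%, 30.7% and 43.5%. Pumilio sites (TGTANATA) were in 6.87% of higher and 11.1% of lower genes, and the AU-rich pentamer ATTTA in 30.1% and 43.3%. All these motifs are rich in A and T, they can overlap one another, and the GC content of the window was 42.7% in higher genes and 36.1% in lower genes. The windows were also split into 3 bins of GC content. In the lowest bin, genes with a CPE had a median difference of -0.62 and those without it -0.53. In the middle bin the medians were -0.23 and 0.02, and in the highest bin 0.21 and 0.50. Within the 4 bins of 3'UTR length, from shortest to longest, genes with a CPE had medians of -0.04, -0.20, -0.53 and -0.47 and those without it 0.63, 0.41, -0.03 and -0.23. In each of these bins the median was lower for genes with a CPE, and the gap was narrowest in the bin of lowest GC content. The difference between higher and lower genes in CPE share was no larger than that of the reversed letters.

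Fertilization separates the MII oocyte from the zygote, and the knockout difference was compared across it. The test was of the difference itself, the zygote log2 difference minus that at MII, and the stages share no library. Of 10341 genes, 600 (5.80%) lay above and 870 (8.41%) below, so 40.8% of those that passed lay above; after quantile normalization that share was 57.0%. With any 1 zygote library left out the counts were 361 to 431 above and 510 to 582 below. Of the genes that passed at each stage, 58 were higher at MII and lower in zygotes, and 56 were lower at MII and higher in zygotes. Mos had 241 and 227 FPKM in knockout MII oocytes and 276 and 261 FPKM in knockout zygotes. In the wild type it had 333 and 355 FPKM at MII and 41.4 and 28.9 FPKM in zygotes, and the stage difference was 3.47 ± 0.31, adjusted p = 3.39e-05. Gdf9 had 941 and 838 FPKM in knockout and 1894 and 2023 in wild-type MII oocytes, and the difference went from -1.14 at MII to 1.27 in zygotes (2.41 ± 0.17, adjusted p = 6.48e-06). Astl had 461 and 394 against 448 and 469 FPKM at MII, a difference of -0.11 that became 2.03 (2.14 ± 0.26, adjusted p = 0.000272). Khdc3, at 2139 and 2187 against 105 and 119 FPKM at MII, and Dppa5a, at 1899 and 1981 against 104 and 137, were higher at both stages, with stage differences of 2.04 ± 0.25 and 2.34 ± 0.26. Securin, Pttg1, moved from -0.42 to 1.29 (1.71 ± 0.29, adjusted p = 0.00271), Cdc20 from -1.11 to 0.96 (2.07 ± 0.32, adjusted p = 0.00132), and the importin Kpna7 from 0.63 to 2.75 (2.13 ± 0.14, adjusted p = 6.48e-06).

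Other genes had a smaller difference in zygotes than at MII, or one of the other sign. Ooep had 1059 and 1030 FPKM in knockout and 184 and 172 in wild-type MII oocytes, and its difference fell from 2.54 to 0.05 (-2.50 ± 0.17, adjusted p = 6.48e-06). Sdhd stayed higher, with 5.95 at MII and 3.95 in zygotes (-2.01 ± 0.15, adjusted p = 8.17e-06). Cdk1 went from 1.54 to -0.75 (-2.29 ± 0.33, adjusted p = 0.000916). Bub1b, a spindle checkpoint kinase, had 75.4 and 74.5 against 309 and 352 FPKM at MII and 225 and 234 against 237 and 247 FPKM in zygotes, so a difference of -2.12 at MII was near 0 after fertilization (2.04 ± 0.16, adjusted p = 9.55e-06). Tet3 narrowed likewise from -3.33 to -1.36 (1.97 ± 0.24, adjusted p = 0.000279). The genes with the highest stage differences among those of 10 FPKM or more in a group included Spink2, listed at 0 in both wild-type zygote libraries and at 20.8 and 13.8 FPKM in the knockout. The aminotransferase Bcat2 (48.1 and 46.5 against 1.19 and 1.31 FPKM in zygotes) and the germ-cell gene Tex19.2 (59.6 and 49.7 against 1.42 and 1.89 FPKM) followed. The others were C1qtnf5 (12.8 and 7.39 against 0.000744 and 3.58 FPKM), H2-Aa (8.71 and 4.54 against 1.95 and 1.13 FPKM), Rpl34-ps1 and the globins Hba-a1 and Beta-s. The globin values differ through the MII libraries: Hba-a1 had 1.15 and 0 FPKM in knockout and 66.1 and 44.5 in wild-type MII oocytes, and in zygotes 0 and 0 against 2.01 and 0. Beta-s had 0.171 and 0 against 31.1 and 25.1 at MII and 0 and 0 against 2.62 and 0 FPKM in zygotes. The lowest stage differences were those of Lypd3 (22 and 20.2 against 51.7 and 35.3 FPKM in zygotes, 57.1 and 56.2 against 1.28 and 0.526 at MII), Atpbd4 (4.86 and 3.11 against 21 and 20 FPKM in zygotes) and Lsmd1 (1.38 and 1.17 against 9.74 and 4.45 FPKM). Next were the proton pump subunit Atp6v0c (34.4 and 80.6 against 5.64 and 52.7 FPKM) and the vomeronasal receptor Vmn1r157 (0.496 and 1.3 against 1.91 and 1.72 FPKM). The last were the transporters Slco4a1 (2.98 and 1.9 against 11.8 and 12.2 FPKM) and Slc14a1 (13.2 and 9.59 against 24.6 and 25 FPKM), and Arl8a (8.5 and 7.93 against 16.5 and 16.6 FPKM). Of these 16 genes, Lypd3, Vmn1r157, Atp6v0c, H2-Aa, Hba-a1 and Beta-s did not pass in the zygote alone. With 1 zygote library left out the stage difference was lost for Atp6v0c (-3.65 without knockout library 1, -2.74 without wild-type library 2), C1qtnf5 (4.11 without knockout library 1, 3.37 without wild-type library 1) and H2-Aa (3.82 without knockout library 1, 3.99 without wild-type library 2). The zygote calls were lost for Arl8a (-0.97 without knockout library 1, -0.88 without knockout library 2, -0.93 without wild-type library 1, -0.92 without wild-type library 2), C1qtnf5 (1.97 without knockout library 1, 1.23 without wild-type library 1), Lsmd1 (-1.82 without knockout library 1, -1.68 without knockout library 2, -1.26 without wild-type library 1) and Slc14a1 (-0.87 without knockout library 2, -1.07 without wild-type library 2).

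**Figure D5:**
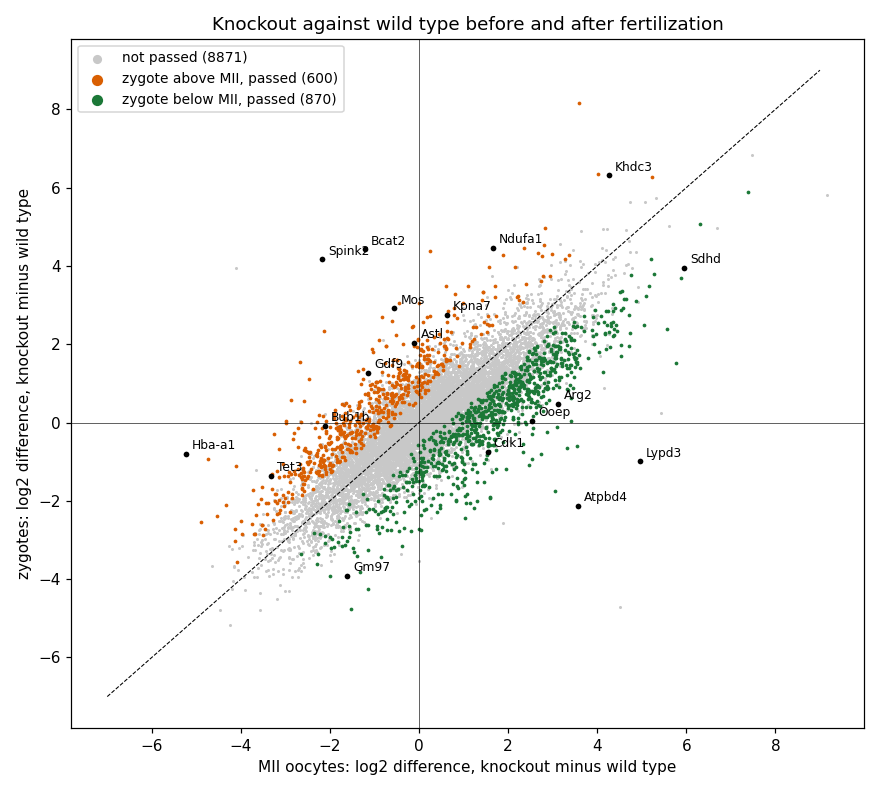
Log2 difference, knockout minus wild type, in zygotes (vertical) against that in MII oocytes (horizontal) for 10341 genes; orange points lie above (600) and green below (870) at an adjusted p under 0.05 for the difference between stages, grey did not pass, black points are named genes, and the dashed line marks equal differences. Mos, Gdf9 and Bcat2 lie on the lower side at MII and the higher side in zygotes, and Cdk1, Lypd3 and Atpbd4 the reverse.

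Markers of other cells that could be collected with zygotes were low. Of 15 granulosa and cumulus markers 13 were below 1 FPKM in all 4 libraries, and Amh, Amhr2, Foxl2, Ptx3 and Star were listed at 0. The list summed to 8.59 and 8.26 FPKM in the knockout and 9.97 and 10.7 in the wild type. Its members with 1 FPKM or more were Cyp19a1 (0.391 and 0.571 against 3.7 and 3.39 FPKM, lower) and Nr5a2 (6.57 and 7.56 against 5.53 and 6.54 FPKM, not passed). Of 15 sperm and testis markers 11 were below 1 FPKM, with sums of 18.1 and 17.6 against 15.9 and 14.3 FPKM. Prm1, Tnp1 and Acr were among 8 listed at 0. Ldhc was higher at 5.26 and 3.38 against 1.35 and 0.352 FPKM, and Odf2 (8.72 and 7.6 against 6.74 and 9.54 FPKM) and Prm2 (3.52 and 4.01 against 6.99 and 4.38 FPKM) did not pass. The 9 blood markers summed to 1.42 and 0 FPKM in the knockout and 2.70 and 0.224 in the wild type, and Ptprc, among others, was listed at 0. That sum leaves out the globin Beta-s, which is not in the list and whose zygote values are given above. The oviduct list summed to 23.4 and 23.0 FPKM in the knockout and 55.9 and 60.4 in the wild type. Most of the sum was E-cadherin, Cdh1, which eggs also express, at 16.3 and 18.1 against 45.6 and 52.2 FPKM (-1.45 ± 0.20), and Elf3 (6.29 and 4.49 against 9.93 and 7.99 FPKM). Foxj1, Krt7, Muc1 and Pax8 were listed at 0. The part of these genes in the other results was not tested. The call of Ldhc (1.30 without knockout library 1, 1.15 without wild-type library 2) was lost with 1 library left out.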

How the data were processed

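Libraries were prepared from purified mRNA of 60 pooled oocytes or embryos, per the labels' protocols, and sequenced as paired ends. Per the submitters' processing notes, CASAVA 1.8, TopHat and Cufflinks were used with mouse build mm9; the TopHat and Cufflinks versions and the gene annotation used are not stated in these notes. The deposited unit is FPKM per locus, as Cufflinks estimates it, without counts: 6.1 to 10.6% of expressed loci in the zygote libraries have an FPKM outside their own interval, and the depth given is an estimate from interval widths. In these files 23813 loci were summed to 23309 symbols.

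Tests used limma 3.58.1 (R 4.3.3) on log2(FPKM + 1), with a mean for each of 8 groups over 16 libraries, 8 residual degrees of freedom, a variance trend, two-sided tests, and Benjamini-Hochberg adjustment over 12311 genes with a mean of 1 FPKM or more in at least 1 group. Fold differences on that scale understate those of low genes. The test was tried on simulated data with this design. There 200 of 12311 genes were changed, far fewer than passed in the zygotes, so that trial does not bear on the calls made here. Named genes are taken from these sets: the 12 largest differences in each direction with 10 FPKM or more and groups that do not overlap, fixed members and the extremes of 51 lists, the 8 highest and 8 lowest stage differences, and detected markers of other cells; the text prints 203 of the 245 genes so named, and some of the others are not reported here. The members and lists were chosen with earlier results of these data known. Same-numbered libraries did not deviate together (r from 0.01 to 0.064 at the 4 stages), so no pairing was used. Transcript lengths and 3'UTRs come from GENCODE vM21, matched by symbol for 98.3%. Alternatives tried are given in the closing section.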

Additional observations from a re-analysis of the deposited data

Results flagged for a closer look

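The knockout difference was tested for being unequal in MII oocytes and zygotes, and the genes here passed that test. Values are log2 differences in the zygote minus those at MII, from limma over all genes. The highest by the size rule were Spink2 (6.35), Bcat2 (5.64), Rpl34-ps1 (4.58), C1qtnf5 (4.47), Hba-a1 (4.44), H2-Aa (4.23), Tex19.2 (4.14) and Beta-s (3.81). The lowest were Lypd3 (-5.94), Atpbd4 (-5.69), Lsmd1 (-4.80), Atp6v0c (-4.25), Vmn1r157 (-4.16), Slco4a1 (-3.54), Slc14a1 (-3.54) and Arl8a (-3.45). Meiotic and egg genes that lay above were Mos (3.47), Gdf9 (2.41), Astl (2.14), Kpna7 (2.13), Cdc20 (2.07), Pttg1 (1.71), Khdc3 (2.04), Dppa5a (2.34), Bub1b (2.04) and Tet3 (1.97), with Ndufa1 (2.82), H3f3a (1.71), Psma1 (1.49) and Trp53 (1.52) among housekeeping and regulatory genes. Genes that lay below were Ooep (-2.50), Cdk1 (-2.29), Sdhd (-2.01), Gm97 (-2.29), Arg2 (-2.65), Slbp (-1.33), Pabpn1 (-1.47), Cox5a (-1.42) and Zfp57 (-0.97). Of these, Gdf9, Cdc20, Bcat2 and C1qtnf5 passed as lower at MII and higher in zygotes, and Cdk1, Atpbd4, Lsmd1, Slco4a1, Slc14a1 and Arl8a the reverse. Groups of 2 libraries were too small for a check of single libraries that stand apart.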

How the results depend on the processing

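The zygote counts, 2986 genes higher and 2848 lower, stayed within 1.5 times of these values under every alternative run, from 2378 to 3079 higher and from 2309 to 3215 lower. The alternatives were a pseudocount of 0.1, no filter, a filter at 5 FPKM, a fit of the members alone, median-of-ratios scaling (2452 and 3215), quantile normalization (2774 and 2896), the zygote libraries alone (2730 and 2608), no variance trend, the highest locus of a symbol, loci with an OK status, correction for transcript length (3003 and 2552) and leaving out each zygote library. A replicate block gave 2985 higher and 2845 lower in the zygote and 542 above and 826 below for the stage difference, and since the numbers do not pair the libraries it is given here alone. The stage counts, 600 above and 870 below, fell when a library was left out: 361 to 431 above and 510 to 582 below, fits with fewer samples. Of the 203 genes printed, 158 kept direction and side of the threshold under every alternative; 19 calls were lost without 1 library.

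Several values near 0 changed sign. Median-of-ratios scaling gave Dppa3 -0.09, Odf2 -0.17 and Ooep -0.16. Quantile normalization gave Bmp15 -0.13, Dppa3 -0.32, H1foo -0.05, Ooep -0.46, Zar1 -0.17 and Zfp57 -0.15. Correction for length gave Bub1b 0.17, Dppa3 -0.47, H1foo -0.35, Igf2bp2 0.13, Ooep -0.10, Trim24 0.07, Uhrf1 0.20, Yap1 0.18 and Zar1 -0.16. With 1 library left out, values ran from -1.86 to 0.00 for Beta-s, -1.59 to 0.00 for Hba-a1, -0.42 to 0.10 for Igf2bp2, -0.20 to 0.24 for Odf2, -0.06 to 0.15 for Ooep and -0.73 to 0.23 for Trim24, and Folr4 reached 0.01. The cause was not tested. The estimated depth of 3950000 to 5310000 fragments limits genes near 1 FPKM, whose fold changes on this scale are understated.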

Other observations

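Genes for the first division and for nuclear traffic were not described above. Of the nuclear pore components, importins and exportins, 6 of 36 members (41 listed) passed as higher and 20 as lower (median -0.64, and -0.21 with 10 higher and 15 lower after correction for transcript length). Kpna3, an importin alpha, was lower at 5.51 and 8.41 against 70.8 and 77.8 FPKM (-3.26 ± 0.21), while Kpna7, the importin alpha of eggs, was higher at 399 and 391 against 58.1 and 57.4 FPKM (2.75 ± 0.10). In the spliceosome 13 of 46 members (48 listed) passed as higher and 18 as lower. Snrpd2, an Sm protein, was higher at 54 and 40.8 against 4.72 and 2.11 FPKM. Sf3b1, of the U2 particle, was lower at 13.4 and 15.5 against 53.6 and 66.7 FPKM. Of the spindle checkpoint and mitotic kinase genes, 3 of 19 members (20 listed) passed as higher and 9 as lower. The cohesin subunit Rad21 was lower at 1.16 and 1.24 against 28.4 and 30.6 FPKM (-3.79 ± 0.22). The checkpoint protein Mad2l1 was lower at 7.11 and 7.46 against 23.6 and 24.4 FPKM and Tpx2 at 6.89 and 11.5 against 27.3 and 34.1 FPKM, while Bub1 was higher at 22.1 and 18.9 against 4.5 and 6.45 FPKM. Of the tubulins and kinesins, 14 of 37 members (54 listed) passed as higher and 14 as lower. Tuba3a (429 and 384 against 29.9 and 28.7 FPKM) and Tubb5 (42.4 and 30.8 against 11.5 and 11.8 FPKM) were higher. The kinesins Kif23 (16.5 and 19.3 against 207 and 237 FPKM) and Kif20b (0.21 and 0.756 against 7.46 and 10 FPKM) were lower. Of the G1/S genes, 3 of 12 members (18 listed) passed as higher and 4 as lower. Cdk2 was higher at 23.8 and 22.5 against 5.85 and 6.12 FPKM. Rb1 was lower at 1.47 and 2.91 against 19.7 and 23.4 FPKM and Ccna2 at 10.2 and 12.2 against 32.9 and 29.1 FPKM.

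Of the antioxidant enzymes, 10 of 20 members (24 listed) passed as higher and 2 as lower, and 10 higher and 4 lower after quantile normalization. Gpx4, which reduces lipid peroxides, was higher at 173 and 176 against 11.8 and 11.2 FPKM (3.81 ± 0.14). In carbon metabolism 10 of 24 members (27 listed) passed as higher and 5 as lower. The pyruvate carrier Mpc2 was higher at 88.9 and 93.1 against 9.86 and 9.97 FPKM. Suclg2 was lower at 2.93 and 2.73 against 26.1 and 25.6 FPKM and Mdh1 at 9.11 and 9.89 against 36 and 24.2 FPKM. Of the p53 and BCL2 genes, 2 of 15 members (21 listed) passed as higher and 5 as lower. The lower count was 1 to 3 when a library was left out, without knockout library 2 being 1 higher and 1 lower, and correction for transcript length gave 3 higher and 2 lower. Bcl2l10, the BCL2 relative of oocytes, was higher at 1053 and 971 against 589 and 527 FPKM (0.86 ± 0.13), and Trp53 was lower at 37.5 and 28.9 against 66.7 and 67.5 FPKM (-1.0 ± 0.23). Among 2-cell genes, Arg2 was higher at 99.7 and 105 against 81.5 and 66.2 FPKM and Sp110 lower at 116 and 137 against 225 and 246 FPKM; the call of Arg2 (0.44 without knockout library 2, 0.33 without wild-type library 2) was lost with 1 library left out.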
